A study of Mus musculus with 35 samples.

Results

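H3K4me3, trimethylation of lysine 4 on histone H3, was compared between female UTX-knockout and wild-type mouse cranial neural crest over all chromosomes except X and Y. The deposited table listed 90922 broad peaks, of which 89151 lay on chromosomes 1 to 19. Peaks had been called separately on the merged wild-type and the merged knockout libraries, so a stretch called in both appeared as 2 rows. Overlapping rows were merged and the longest row was kept, which gave 53047 regions. Of these, 34987 were called in both lists, 15131 only in wild type and 2929 only in the knockout. A minimum on low counts left 52160 regions to be tested, and the 887 left out were 2 shared, 715 wild-type and 170 knockout regions.

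H3K4me3 sits on nucleosomes at the promoters of active genes and of genes poised for activation. Wide H3K4me3 domains are known from genes that set cell identity, and narrow weak sites are often found away from promoters. UTX, encoded by the X-linked gene Kdm6a (also named Utx), removes methyl groups from lysine 27 of histone H3 and is a subunit of the MLL3 and MLL4 complexes, which methylate lysine 4. Cranial neural crest is the embryonic cell population that forms most of the facial skeleton.

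The wild-type group (wt) held 3 libraries of male embryos with the genotype WT Wnt1-Cre. The knockout group (fko) held 3 libraries of female embryos with the genotype Utx fl/fl, Wnt1-Cre. A single library came from a male knockout (mko) with Utx fl/y, Wnt1-Cre. All groups, controls included, carried Wnt1-Cre and the Rosa-Tomato reporter and were taken at stage E12.5 (embryonic day). Tomato-positive cells that exclude the dye DAPI were sorted, and unfixed chromatin was cut with micrococcal nuclease before immunoprecipitation with the antibody Abcam ab8580. Wnt1-Cre acts in cells that express or once expressed Wnt1, which include the dorsal neural tube as well as the neural crest. Genotype and sex went together between wt and fko and cannot be told apart in that comparison. The labels do not say that the libraries of a group came from separate embryos or litters, so the p-values measure the spread between these libraries, which may be technical.

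Reads in the merged regions ranged from 11477894 to 20062471 per library. The labelled sexes were read from rows on the Y chromosome, which held 1842 to 2813 reads in the wt libraries, 3452 in the mko library, and 0, 1 and 12 in the fko libraries. In RNA libraries of the same cell population, Kdm6a stood at 47.3 and 55.5 CPM (reads scaled to a common library size) in wt and at 49.7 and 62.7 in fko; these counts cover the whole gene and do not check the deletion of part of it. All 12 crest and mesenchyme markers read at least 1 CPM in each of those 4 RNA libraries. The summed level of 5 neural tube markers was 140 and 167 CPM in wt against 48.5 and 66.4 CPM in fko, with all 5 at or above 1 CPM, and the part of neural tube cells in the H3K4me3 results was not tested. Summed levels of 4 endothelial markers (7.89 to 12.1 CPM), 3 leukocyte markers (3.62 to 7.79 CPM), 4 epithelial markers (12.4 to 17.7 CPM) and 3 skeletal muscle markers (0.307 to 1.24 CPM) were low. The 4 erythroid markers summed to 16.4 to 23.3 CPM, and Hba-a1 was at 0 in all 4 libraries.

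Relative to wide and strong regions, narrow and weak regions had a lower H3K4me3 signal in fko than in wt. With the main scaling, regions under 1 kb had a median log2 fold change of -0.52 (fko over wt), and regions of 8 kb or more had 0.30. Among regions called in both lists, these medians were -0.23 and 0.30. In the test across all regions, 33700 of 52160 differed, or 64.6% (edgeR quasi-likelihood test, Benjamini-Hochberg threshold 0.05). Of these, 14414 were higher in fko (27.6%) and 19286 were lower (37%). Most of the differences were small. At least a 2-fold difference was seen in 526 of the higher and 5783 of the lower regions. In 34303 regions (65.8%) the values of the 2 groups did not overlap. The libraries are bulk samples, in which fewer cells carrying the mark and less mark per cell cannot be told apart. Input libraries were not analysed, so a difference between libraries in enrichment over background was not tested.

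All fold changes compare shares of each library's reads, since the labels describe no spike-in, so the zero of the scale depends on the scaling of the libraries. The main scale used one factor per library, a trimmed mean of the ratios between libraries (TMM). Under it the median of all regions was -0.16, and 42.8% of the called regions were higher. With library totals the median was -0.33 and 19.9% of calls were higher. With DESeq2 the median was -0.06 and 61.1% of calls were higher. DESeq2 brings its own test as well as its own size factors, so that share does not reflect the scaling alone. With a loess curve on signal fitted per library, which sets the typical change to 0 at every signal level, the median was -0.0050 and 58.7% of calls were higher. Under the loess scaling 16679 regions (32%) differed, 9789 higher (18.8%) and 6890 lower (13.2%). The higher regions common to TMM and loess numbered 5646, and the lower regions common to both numbered 4926. A further 453 regions were higher under TMM and lower under loess, and 0 went the other way.

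The fold change was higher in stronger regions. The tested regions were ordered by their mean CPM over the 6 libraries and split into 4 equal groups of 25% each. The median log2 fold change was -0.71 in the weakest 25%, -0.54 in the second group, -0.11 in the third and 0.23 in the strongest. In the weakest 25%, 592 of 13040 regions were higher and 6724 were lower. Of the lower ones, 6580 were in the wt list alone, whose regions were chosen for being high in wt. Among the 1464 regions of this group that were called in both lists, 21 were higher and 143 lower. For regions called in both lists the medians of the 4 groups were -0.17, -0.35, -0.10 and 0.23, without a steady climb at the weak end. In the strongest 25%, 10488 of 13040 were higher and 193 were lower. With regions ordered instead by reads scaled to library totals, the medians of the strongest and the weakest 25% were 0.23 and -0.70, a difference of 0.92 on the log2 scale that does not depend on a factor common to a whole library. The direction of the strongest 25% does depend on it, since their median was 0.23 with TMM, 0.33 with DESeq2, 0.051 with library totals, 0.00010 with TMM factors taken from those regions alone, and 0.0044 with loess.

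**Figure D1:**
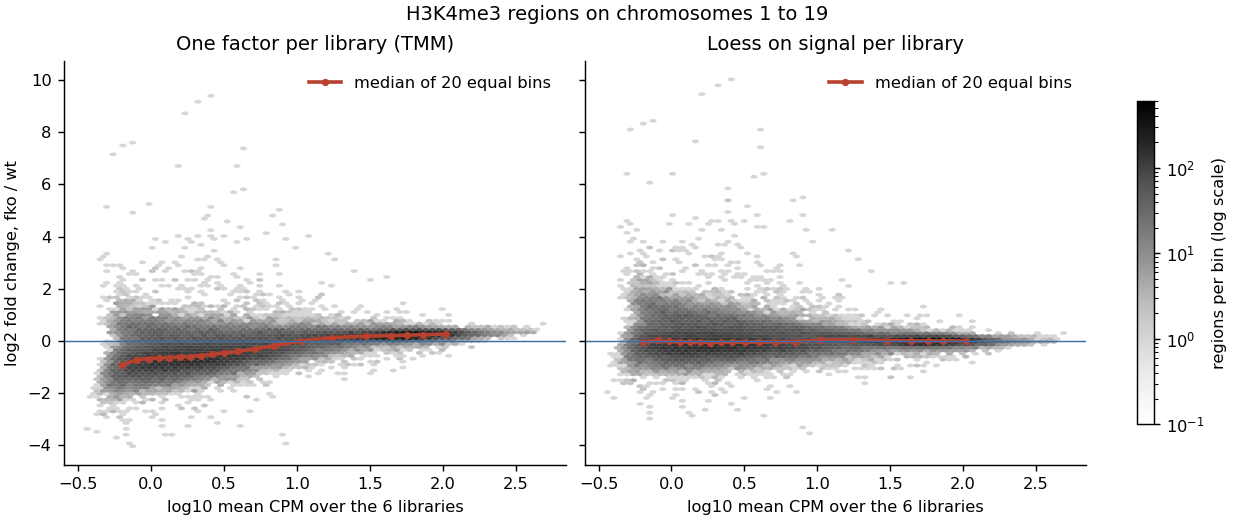
Log2 fold change (fko over wt) of the 52160 tested regions against log10 of the mean CPM over the 6 libraries, with the density of regions in grey on a log scale and the median of 20 equally filled bins in red. With TMM factors (left) the median climbs from the weak to the strong regions, whose sign turns on the scaling, and with loess (right) it lies near 0 at all levels by construction. The bins include regions called in the wt list alone, which make up 9459 of the 13040 weakest.

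The 6 libraries separated by group in each width class except 1 to 2 kb. Each library's log2 CPM per region (0.5 CPM added, TMM factors) was set against the mean of the 6. For regions under 1 kb the library medians were 0.12, 0.23 and 0.20 in wt and -0.22, -0.15 and -0.13 in fko. For regions of 8 kb or more they were -0.12, -0.16 and -0.16 in wt and 0.20, 0.13 and 0.11 in fko. The groups did not overlap in either class. For regions of 1 to 2 kb the libraries ran together, at 0.0011, 0.0056 and 0.025 in wt and 0.0034, -0.011 and -0.012 in fko. The knockout library fko1 lay farthest from wt in the widest and in the narrowest class.

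Calls followed the same order along the width of the regions. Among 29745 tested regions under 1 kb, 2052 were higher and 14818 lower. Of the lower ones, 10375 were in the wt list alone, whose regions were chosen for being high in wt. Among the 13429 under 1 kb that were called in both lists, 1196 were higher and 4441 lower (median -0.23). Regions of 1 to 2 kb were split, with 3056 of 10265 higher, 3637 lower and a median log2 fold change of -0.0059. Regions of 2 to 4 kb had 6221 of 8562 higher and 711 lower (median 0.21), and those of 4 to 8 kb had 2665 of 3133 higher and 113 lower (median 0.25). Of the 455 regions of 8 kb or more, 420 were higher and 7 lower. The sign of the wider classes depends on the scaling: for 2 to 4 kb the median was 0.038 with library totals and -0.013 with TMM factors from the strongest 25% of regions. With loess scaling the medians of all 5 width classes lay between -0.034 and 0.0085, and regions of 8 kb or more had 136 higher and 112 lower.

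Width and signal go together, so each width class was also split by density, the mean CPM per kb, at limits that divide all regions into 4 equal groups. Among regions under 1 kb, the sparsest had a median log2 fold change of -0.80 and the 554 densest had 0.16. Among regions of 1 to 2 kb, the median ran from -0.63 in the sparsest to 0.18 in the densest. Among regions of 2 to 4 kb it ran from -0.36 to 0.23. The groups were not limited to regions called in both lists. Within the densest regions the medians rose little with width, from 0.16 under 1 kb to 0.29 at 8 kb or more, and all of these positive values are subject to the scaling given above for the strongest 25%.

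The share of each library's reads in wide regions gives the shift without a fitted factor. It still depends on the peak lists, since 15131 regions were called only in wt and 2929 only in fko. Regions of 4 kb or more held 34.4%, 34.0% and 34.0% of the reads in wt and 36.4%, 36.1% and 36.0% in fko. The means were 34.1% ± 0.186 (SD, n = 3) and 36.2% ± 0.183 (SD, n = 3), a difference of 2.02 percentage points. With the wt rows alone the difference was 1.68 points, and with the fko rows alone it was 1.38. The groups did not overlap, and the two-sided exact permutation test gave p = 0.1, the smallest that 3 against 3 libraries allow. The mko library stood at 36.2%. Regions under 1 kb held 7.62%, 8.45% and 8.24% in wt against 5.57%, 6.01% and 6.16% in fko, and 5.74% in mko. Of the 5 width classes, those under 2 kb held a smaller share in fko and those of 2 kb or more a larger one, each without overlap between the groups (exact p = 0.1 in each).

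**Figure D2:**
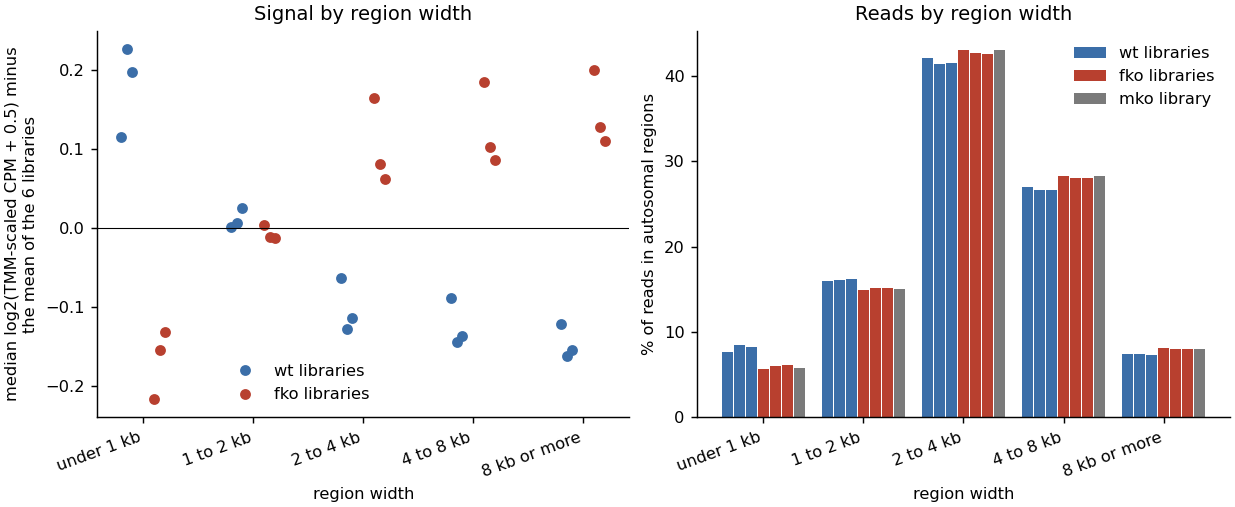
Left, the median over regions of log2 CPM (TMM-scaled, 0.5 CPM added) minus the mean of the 6 libraries, by region width, with 1 point per library. Right, the percentage of each library's reads in autosomal regions that fell in each width class, with 1 bar per library; under 1 kb the 3 fko bars and the mko bar (5.57% to 6.16%) are below the 3 wt bars (7.62% to 8.45%). The positive sign of the fko points on the left in regions of 2 kb or more depends on the scaling.

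The 2 deposited peak lists differed the same way as the counts, but they were called on the same libraries and are no separate evidence. The wt list had 50795 autosomal rows that covered 69.3 Mb, and the fko list had 38356 rows that covered 63.7 Mb. The median peak was 819 bp wide in wt and 1008 bp in fko. Peaks of 4 kb or more numbered 2829 in wt and 3347 in fko. In 34009 regions exactly 1 row of each list met. There the fko peak was the wider one in 35.6% of regions under 1 kb and in 76.4% of regions of 8 kb or more.

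The lists also shape the counts, since a region called in 1 group only was chosen for being high there. Of the 14416 tested regions of the wt list alone, 11086 were lower and 0 were higher, and of the 2759 of the fko list alone, 940 were higher and 2 lower. These counts are a description of that choice. The dependence on signal was smaller without such regions. Among the 34985 tested regions called in both lists, the median log2 fold change was -0.32 in the weakest 25% of that set and 0.24 in its strongest, a difference of 0.56. With the fko rows alone as the table the difference was 0.33, and with the wt rows alone it was 0.99.

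Chromosomes with more strong regions had a higher median change (Pearson r = 0.917 over 19 chromosomes, which share the same libraries and scaling; a description without a test). The lowest median log2 fold change was -0.31, on chromosome 3, and the highest 0.054, on chromosome 11. Chromosome 3 had 675 of 3065 regions higher and 1271 lower, and chromosome 11 had 1270 of 3525 higher and 1059 lower. Chromosomes 7 and 11 were the only ones of the 19 with a median above 0 under TMM. After loess scaling the medians ran from -0.043 (chromosome 16) to 0.039 (chromosome 11). Within the strongest 25% of regions, whose sign depends on the scaling, the medians ran from 0.20 (chromosome 16) to 0.25 (chromosome 19), and within the weakest 25% from -0.79 (chromosome 15) to -0.62 (chromosome 19). The share of a chromosome's regions that fell in the strongest 25% was 21.7% on chromosome 3, 19.4% on chromosome 18, 30.1% on chromosome 11 and 32.2% on chromosome 7.

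In reads, chromosome 11 held 8.12%, 8.03% and 8.04% of the autosomal total in wt and 8.31%, 8.33% and 8.33% in fko, 1.03 times as much. Chromosome 16 held 3.42%, 3.44% and 3.44% in wt and 3.33%, 3.34% and 3.34% in fko, 0.972 times as much. These were the highest and the lowest ratio among the 19 chromosomes, and the groups did not overlap in either (exact permutation p = 0.1 in each, unadjusted over 19 chromosomes). The mko library held 8.12% on chromosome 11, as in wt, and 3.34% on chromosome 16, as in fko.

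**Figure D3:**
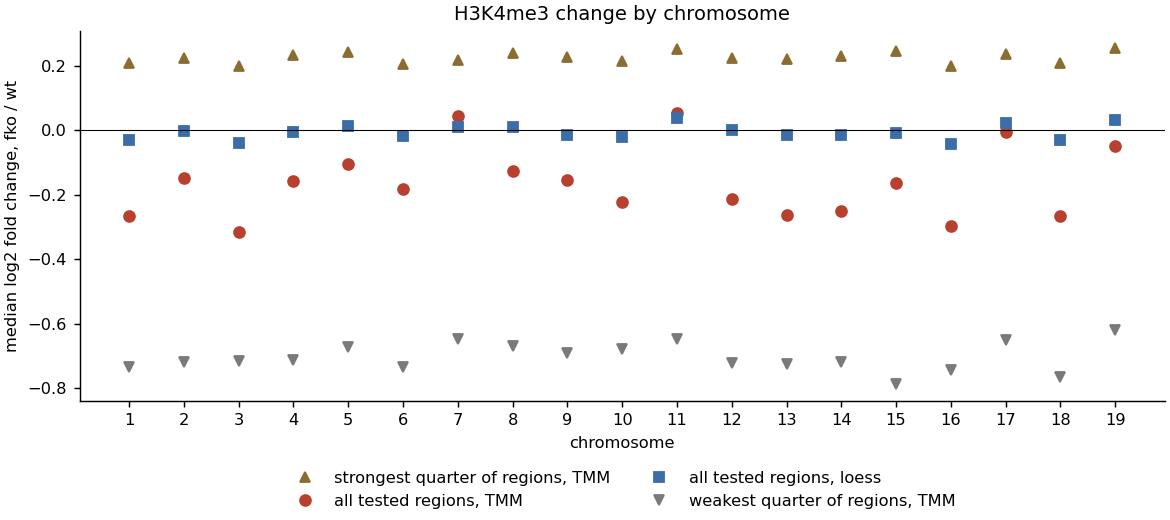
Median log2 fold change (fko over wt) of the tested H3K4me3 regions on each of the 19 autosomes, for all regions with TMM or loess scaling and for the strongest and weakest 25% of regions with TMM. The TMM medians of all regions spread from -0.31 to 0.054, while those of the strongest 25%, whose sign depends on the scaling, stay between 0.20 and 0.25.

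Shares of called regions were also counted in windows of 5 Mb. Of 504 windows, 473 held at least 20 tested regions. The highest share of higher regions was in chromosome 4 from 155 to 160 Mb, where 29 of 33 regions were higher, 3 were lower, and 72.7% belonged to the strongest 25%. Chromosome 7 from 10 to 15 Mb had 21 of 32 higher, chromosome 11 from 120 to 125 Mb had 52 of 82, and chromosome 19 from 5 to 10 Mb had 131 of 210. Under loess these 4 windows had 16, 5, 42 and 85 higher regions. The highest share of lower regions was in chromosome 4 from 75 to 80 Mb, where 28 of 34 regions were lower, 0 were higher, and the median region was 570.5 bp wide. Chromosome 3 from 20 to 25 Mb and chromosome 8 from 130 to 135 Mb each had 18 of 28 lower, and chromosome 17 from 60 to 65 Mb had 50 of 78. Under loess these had 7, 9, 6 and 17 lower regions. The windows were chosen for these shares, which are therefore given without a test.

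A small set of regions changed by a large factor. At least 4-fold higher were 132 regions (0.253%) and at least 4-fold lower were 153 (0.293%). The higher set had a median width of 571 bp, with 108 regions under 1 kb. The lower set had a median width of 273 bp, with 150 under 1 kb. Of the higher set, 121 were called in the fko list alone, and of the lower set, 152 in the wt list alone. All 132 rises and 128 of the 153 falls also passed the test in the same direction under loess. That test used the same counts that chose the sets, so it is no separate evidence. The number at least 4-fold higher was 256 with loess and 10 with the wt rows alone. The number at least 4-fold lower depended on the setting: it was 25 with loess and 285 with library totals, and 231 without wt1, 230 without fko1, 292 without fko2 and 336 without fko3. A UTX peak of the O9-1 line lay on 3.03% of the rises and 7.84% of the falls, against 8.18% of all tested regions under 1 kb, the width of most regions in both sets.

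The rise with the smallest p was at chr2:154844109-154846033 (mm9 coordinates here and below, 1-based). Its H3K4me3 was 11.8, 12.3 and 13.2 CPM in wt and 71.5, 62.1 and 66.4 CPM in fko. All fko libraries were above all wt libraries, with a log2 fold change of 2.42 ± 0.0724 (SE, adjusted p = 2.2e-239, edgeR), and the mko library read 66.6 CPM. An H3K27me3 region over it was higher too, at 17.0 CPM in wt and 36.5 in fko (log2 fold change 1.10 ± 0.0828, adjusted p = 4.93e-38, edgeR), and a UTX peak of the O9-1 line overlapped it.

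At chr10:21777816-21779226 the wt libraries had 3.53, 4.63 and 3.51 CPM and the fko libraries 33.3, 34.8 and 33.3 CPM. The log2 fold change was 3.14 ± 0.0980 (SE), and mko read 31.9 CPM. At chr2:161336159-161338133 the values were 3.02, 3.49 and 2.25 CPM in wt and 29.8, 30.5 and 29.4 CPM in fko, with 37.0 CPM in mko. In both regions the fko libraries lay close together and far above wt. At chr19:5405842-5408099, the widest of the 132, the level was 7.25, 6.0 and 5.92 CPM in wt and 41.3, 41.8 and 41.3 CPM in fko, and mko was lower than each of the fko libraries at 31.6 CPM. At chr9:103010422-103012164 wt had 1.67, 1.62 and 1.10 CPM and fko 23.5, 22.9 and 22.0 CPM, and mko lay between at 14.6 CPM. An H3K27me3 region over that site was lower in fko, at 86.2 CPM against 101.2 CPM in wt (log2 fold change -0.23 ± 0.0458, adjusted p = 8.76e-06, edgeR).

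In 6 of the rises no wt library had a read, a set picked out after the values were seen. All 6 were called in the fko list alone, whose regions were chosen for being high in fko. At chr7:111463180-111463892 the fko libraries had 103, 89 and 72 reads (5.66, 5.30 and 4.29 CPM). Set against a floor of 3 reads over the wt group, the level was at least 79.8-fold higher in fko. The mko library had 212 reads there, or 11.7 CPM, above all fko libraries. At chr14:26798755-26799227 fko had 93, 57 and 70 reads (at least 66.5-fold higher), and at chr14:51596293-51596763 it had 64, 61 and 47 (at least 52.0-fold higher). The remaining ones were chr10:93074397-93074590 (at least 23.3-fold higher), chr5:110335509-110336001 (at least 20.6-fold) and chr17:36362072-36362382 (at least 16.6-fold). The region of chromosome 5 had 20, 20 and 28 reads in fko but 3 in mko, whereas the regions of chromosomes 10 and 17 had 27 and 23 reads in mko. These fold bounds cover counting error only. An H3K27me3 region over the site of chromosome 17 was lower in fko, at 295 CPM against 457 CPM in wt (log2 fold change -0.63 ± 0.0304, adjusted p = 5.87e-93, edgeR).

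The fall with the smallest p was at chr1:183851666-183852868. It read 16.7, 14.04 and 16.6 CPM in wt and 1.21, 0.893 and 1.13 CPM in fko, a log2 fold change of -3.87 ± 0.149 (SE, adjusted p = 1.48e-145, edgeR), with 1.05 CPM in mko. At chr10:22002437-22003257 wt had 13.7, 15.3 and 16.1 CPM and fko had 1.48, 1.01 and 1.19 CPM. Neither region was called in the fko list. The H3K27me3 region over the second was also lower, at 34.4 CPM in wt and 19.7 in fko (log2 fold change -0.80 ± 0.0809, adjusted p = 3.11e-21, edgeR).

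Other falls were in wider regions that stayed called in both groups. At chr7:108541711-108544740 the level was 31.5, 30.1 and 30.2 CPM in wt and 9.56, 10.1 and 12.7 CPM in fko. At chr3:95302479-95305015 it was 43.9, 44.6 and 41.8 CPM in wt and 18.7, 16.5 and 18.7 CPM in fko. At chr13:23492643-23494725 it was 64.6, 59.2 and 62.8 CPM in wt and 27.2, 28.3 and 27.98 CPM in fko. An H3K27me3 region of 23.0 kb overlapped it. That region was also lower, at 413 CPM in wt and 378 in fko (log2 fold change -0.13 ± 0.0299, adjusted p = 1.95e-04, edgeR). In each of these H3K4me3 regions the mko library was also below wt, at 8.28, 15.1 and 33.9 CPM. A different order was seen at chr17:6474595-6476611, with 78.7, 69.5 and 70.6 CPM in wt, 39.3, 32.9 and 36.9 CPM in fko, and 74.0 CPM in mko. There the mko library lay within the wt range, while fko was lower (log2 fold change -1.0 ± 0.0606 SE, adjusted p = 1.11e-58, edgeR).

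**Figure D4:**
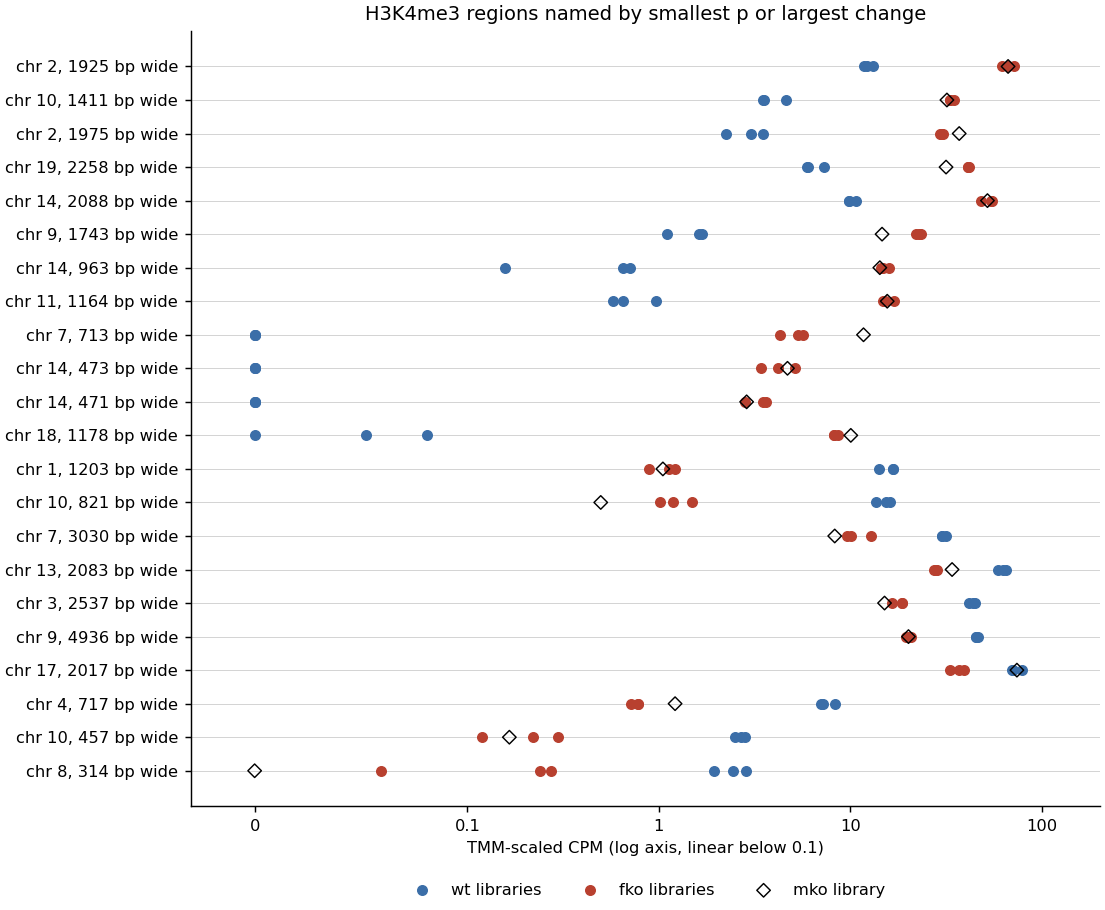
H3K4me3 level (TMM-scaled CPM, log axis that is linear below 0.1) in each library at the 22 regions with the smallest p or the largest change, labelled by chromosome and width; filled points are the 3 wt and 3 fko libraries and diamonds the mko library. The upper 12 regions have all fko points right of all wt points and the lower 10 the reverse, by the rule that chose them, and in 1 of the lower ones, a 2017 bp region of chromosome 17, the diamond sits among the wt points.

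Large changes sat on all 19 autosomes and in 194 of 504 windows, and some lay next to each other. Chromosome 14 had 25 such regions among 2046 tested (1.22%), and chromosome 7 had 7 among 2983 (0.235%). The window with the most was chromosome 10 from 20 to 25 Mb, with 8. These 8 lay between chr10:21777816 and chr10:22018402, and 5 were higher and 3 lower. A pair there stood side by side and went opposite ways: chr10:21892832-21893056 read 2.82, 3.0 and 2.88 CPM in wt and 0.769, 0.536 and 0.595 CPM in fko, while chr10:21893097-21893821 read 0.963, 0.568 and 0.524 CPM in wt and 3.57, 2.62 and 3.75 CPM in fko. In chromosome 14 from 50 to 55 Mb 7 regions changed at least 4-fold, 6 of them higher. In chromosome 17 from 35 to 40 Mb, a stretch that holds class I genes of the major histocompatibility complex, 6 changed at least 4-fold and all were higher. Their wt levels ran from 0 to 1.80 CPM and their fko levels from 0.774 to 10.4 CPM. These windows were picked out after their values were seen.

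Single wide regions changed by small factors, and the sign of their class depends on the scaling. Of 3588 tested regions of 4 kb or more, 3085 were higher and 120 lower, but 1 was at least 2-fold higher and 2 at least 2-fold lower. The widest, chr1:42739971-42771881 (31911 bp), read 370, 364 and 363 CPM in wt and 497, 467 and 462 CPM in fko, and 582 CPM in mko. Its log2 fold change was 0.38 ± 0.0502 (SE) with TMM and 0.041 (adjusted p = 0.116, edgeR) with loess. The second widest, chr5:120109972-120141556, also had the highest mean level, at 393, 388 and 389 CPM in wt and 614, 575 and 570 CPM in fko. It was higher under both scalings, by 0.59 ± 0.0503 with TMM and by 0.24 (adjusted p = 9.55e-23, edgeR) with loess, and mko stood at 437 CPM. The region chr8:111218626-111248918 read 348, 343 and 345 CPM in wt and 457, 439 and 428 CPM in fko, a log2 fold change of 0.35 with TMM and 0.020 with loess. The region chr2:17959578-17982329, second in level, rose under both scalings (0.47 with TMM, 0.13 with loess), and mko was above fko there at 634 CPM against 462 to 540 CPM.

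A few wide regions went against their class, and others rose by more than most of it. All are named after their values were seen. At chr9:58003026-58007961 (4936 bp) the level was 45.3, 45.1 and 46.4 CPM in wt, 20.7, 20.1 and 19.6 CPM in fko and 20.1 CPM in mko. At chr14:76361963-76366316 it was 19.8, 21.1 and 20.6 CPM in wt and 9.34, 8.69 and 10.5 CPM in fko. At chr13:49702646-49707174 it was 66.0, 70.03 and 68.4 CPM in wt, 43.0, 40.05 and 38.4 CPM in fko, and lower again in mko at 26.2 CPM. The wide region that rose most, chr16:98285312-98290463 (5152 bp), read 7.13, 8.76 and 8.02 CPM in wt and 17.2, 20.8 and 24.2 CPM in fko. It was called in the fko list alone. The wide rise with the smallest p, chr8:86114598-86119437, read 50.8, 48.9 and 48.1 CPM in wt and 101.1, 92.2 and 94.9 CPM in fko. Each of these kept their direction under loess.

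H3K27me3 was then read at the same places. H3K27me3 is the mark that UTX removes, and its overlap with H3K4me3 is typical of developmental promoters. A region of H3K27me3 overlapped 28.1% of the tested H3K4me3 regions (at least 1 bp). Weak H3K4me3 regions that overlapped one had a higher median change than those without, under TMM and under loess. Under 1 kb the median log2 fold change was -0.18 for 5349 regions with H3K27me3 and -0.59 for 24396 without, and the loess values were 0.21 and -0.046. From the weakest to the third group of signal the medians with H3K27me3 were -0.39, -0.30 and 0.047, against -0.74, -0.59 and -0.25 without. In the strongest 25% the order was reversed, at 0.21 with and 0.24 without. The classes also differ in their share of regions called in the wt list alone, which were chosen for being high in wt. Under 1 kb, H3K27me3 overlapped 1300 of 13680 such regions, against 3509 of 13429 regions called in both lists. The TMM medians of these 2 sets were -0.89 and -0.23. How much of the gap in weak regions comes from this choice was not tested. These differences between classes of regions are descriptions, and no test of them was made.

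Overlap with UTX peaks showed no such gap in weak regions. The UTX peaks came from 1 library of the O9-1 line, cultured cranial neural crest from embryonic day 8.5, and not from the sorted cells. Regions under 1 kb had a median of -0.52 with a UTX peak and -0.53 without. In the strongest 25%, where 10034 of 13040 regions had a UTX peak, the median was 0.23 with and 0.19 without, and 8511 of the 10034 and 1977 of the other 3006 were called higher, counts that depend on the scaling as above.

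**Figure D5:**
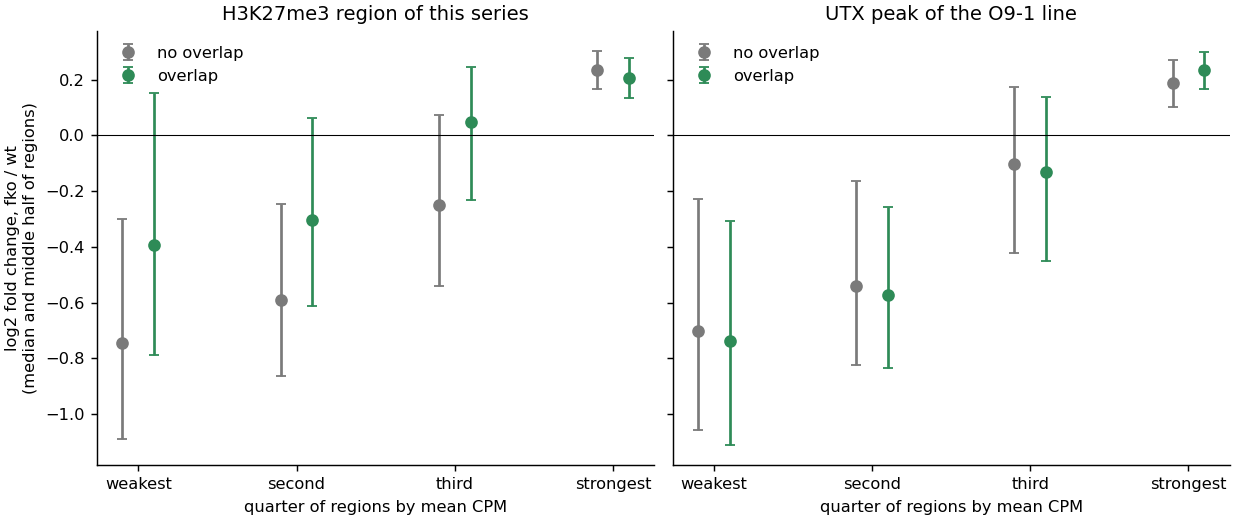
Median log2 fold change of H3K4me3 (fko over wt, TMM) in the 4 equal groups of signal, for regions with (green) and without (grey) an overlapping H3K27me3 region (left) or UTX peak (right); bars run from the 25th to the 75th percentile of the regions and are not an error. In the weakest 25% the medians are -0.39 with and -0.74 without H3K27me3, and -0.74 with and -0.70 without a UTX peak. Regions of the wt list alone, chosen for being high in wt, overlap H3K27me3 less often than regions called in both lists. The positive values of the strongest 25% depend on the scaling.

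H3K27me3 itself differed at 5188 of 18934 tested regions (27.4%), 2892 higher in fko (15.3%) and 2296 lower (12.1%; edgeR quasi-likelihood test, threshold 0.05). At the 14605 H3K4me3 regions that overlapped a tested H3K27me3 region, H3K27me3 was higher at 3902 and lower at 1825. At the 2754 of them with lower H3K4me3, H3K27me3 was higher at 743 and lower at 171. At the 5794 with higher H3K4me3, it was higher at 1329 and lower at 1081, and at the 6057 without a called H3K4me3 difference it was higher at 1830 and lower at 573. Among regions of 4 to 8 kb with lower H3K4me3, H3K27me3 was higher at 26 of 48 and lower at 0, against 107 of 208 higher and 9 lower where H3K4me3 was not called. Regions of 2 to 4 kb with lower H3K4me3 had 94 of 244 higher and 15 lower, against 368 of 895 and 65 where H3K4me3 was not called. Several H3K4me3 regions can share 1 H3K27me3 region, so these counts are not independent.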

How the data were processed

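Per the labels, the deposited table holds unnormalised H3K4me3 read counts per MACS2 broad peak for 7 libraries, and a second table holds the same for H3K27me3. Per the submitters' processing notes, Bowtie2, MACS2, SAMtools and HTSeq were among the tools and mm9 was the genome build; their versions and settings are not given in the sources used here. The deposited RNA table holds raw counts per gene. Rows on chromosomes 1 to 19 that overlapped by at least 1 bp were merged, keeping the longest row and its counts. The 3 wt and 3 fko libraries entered a quasi-likelihood fit in edgeR 4.0.16 (R 4.3.3) with TMM factors, filterByExpr and a Benjamini-Hochberg threshold of 0.05. The common biological coefficient of variation was 3.72%. The mko values come from a fit of all 7 libraries. Loess scaling (limma 3.58.1, span 0.3) and DESeq2 1.42.0 were alternatives. The scripts were tested on simulated counts. Read shares were compared by an exact permutation test (scipy 1.17.1).

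Pairs of libraries of one group differed by more than sampling noise, with a chi-square of 1.12 to 2.16 per region, against 5.58 to 13.7 between groups (TMM). Under loess scaling these were 1.08 to 1.19 within groups and 3.50 to 4.91 between groups. The first principal component held 71.4% of the variance and separated the groups. Named regions are the 8 with the smallest p and the 4 with the largest change (mean of at least 1 CPM) in each direction among called regions whose groups did not overlap, the 3 widest and the 3 with the highest level, and the 4 windows of 5 Mb with the highest share called in each direction. Members, lists and rules were chosen with earlier results of these data known. No mm9 genome or annotation was used here, so regions carry no gene names or sequences. Input libraries were not analysed here.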

Additional observations from a re-analysis of the deposited data

How the results depend on the processing

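The count of changed regions was 28265 to 33090 when 1 library was left out, with 11906 to 13839 higher and 16028 to 19251 lower; regions at least 4-fold higher numbered 128 to 155 and those at least 4-fold lower 169 to 336 (231 without wt1, 230 without fko1, 292 without fko2, 336 without fko3). The gap between strongest and weakest regions was 0.86 to 1.00 and the gain in wide-region reads 1.92 to 2.13 points. Library totals gave 6128 higher regions and 285 at least 4-fold lower. Loess gave 16679 changed, 6890 lower, 256 and 25 at least 4-fold higher and lower, and a gap of 0.018, which follows from its construction. The wt rows alone gave 10 regions at least 4-fold higher, and the fko rows alone gave 15845 changed, 7282 higher, 8563 lower, 2 at least 4-fold lower and a gap of 0.33; each table leaves out the regions called in the other group only. DESeq2 gave 9516 lower regions, and 2614 changed for H3K27me3, which ran from 4185 to 4566 with 1 library left out. TMM factors from the strongest 25% of regions, a scaling chosen after seeing the data, gave 3904 higher and 342 at least 4-fold lower. Where no construction explains a change, the cause was not tested. The gain in wide-region reads was 3.19 points at 2 kb or more, 0.66 at 8 kb or more, 1.68 in wt rows and 1.38 in fko rows. Of 420 values of the 30 named regions under the alternatives, 417 kept their direction and side of the threshold, and 3 lost the threshold, all under loess. The wt rows alone and the fko rows alone each lack some of the named regions, which have no value there. Most of the 30 were picked from these same libraries for a small p or a large change, so these counts are a description.

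With the replicate number as a block, 34841 regions changed, and 5365 for H3K27me3. Same-numbered libraries did not deviate together in H3K4me3 (correlations 0.105, 0.012 and 0.011), so the numbers are not taken as pairs.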
